A study of Homo sapiens with 9 samples.

Results

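The 10 genes described here, immediate early genes and AP-1 subunits, were followed in NCI-H716, a line of human colorectal cancer cells that has enteroendocrine traits. They were the FOS subunits FOS, FOSB, FOSL1 and FOSL2, the JUN subunits JUN, JUNB and JUND, the zinc finger factor EGR1, the nuclear protein IER2 and the stress-responsive factor ATF3. The genes were chosen by name, with earlier results of these arrays known, in particular that some were higher with an empty vector than in untreated cells and lower again with mutant YAP. The Illumina bead array carried all 10 among 30817 gene names, and 12 of 47230 probes bore one of the 10 names: 1 probe for each of 9 genes and 3 for ATF3. The 9 arrays were labelled as 3 of untreated NCI-H716 cells, 3 of NCI-H716 cells given a control vector and 3 of NCI-H716 cells given a YAP mutant vector. No other allele, agent or time is given in the labels. The vector's promoter, the mutation of YAP, the time after its introduction, and whether the cells were a pool or a clone are not given in the sources used here.

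Immediate early genes are switched on within minutes of a growth factor or stress signal, without new protein synthesis. The ERK kinases act on ternary complex factors that sit with SRF at CArG boxes, and CREB and related factors act at cAMP response elements, which together drive FOS and EGR1. FOS proteins pair with JUN proteins through a leucine zipper to form AP-1, which acts with YAP and TEAD factors at many enhancers. In colorectal cells, the ERK pathway that feeds these genes is often active through RAS or RAF mutations.

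The promoters of FOS, FOSB and EGR1 are shown because the vector differences described below centred on these 3 genes. Each sequence runs 5′ to 3′ over 300 bases, from 250 before to 50 after the annotated start, on the strand of the gene. Capitals mark matches to the CArG box and to TGACGT, the core of the cAMP response element, on either strand; TGACGT was added after the sequences had been read. The sequences and positions are from RefSeq (GRCh38.p14).
FOS (chr14:75278578-75278877, plus strand): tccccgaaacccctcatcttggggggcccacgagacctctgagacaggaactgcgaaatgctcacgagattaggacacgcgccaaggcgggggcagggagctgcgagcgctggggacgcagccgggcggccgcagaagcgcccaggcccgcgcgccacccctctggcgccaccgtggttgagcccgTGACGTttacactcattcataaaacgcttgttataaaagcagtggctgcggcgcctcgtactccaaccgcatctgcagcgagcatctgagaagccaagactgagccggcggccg
FOSB (chr19:45467746-45468045, plus strand): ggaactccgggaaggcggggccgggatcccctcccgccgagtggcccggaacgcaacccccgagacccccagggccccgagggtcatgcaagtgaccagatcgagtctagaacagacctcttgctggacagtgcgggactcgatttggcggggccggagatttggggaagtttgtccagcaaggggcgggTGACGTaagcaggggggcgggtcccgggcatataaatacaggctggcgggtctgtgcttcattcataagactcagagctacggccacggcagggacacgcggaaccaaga
EGR1 (chr5:138465229-138465528, plus strand): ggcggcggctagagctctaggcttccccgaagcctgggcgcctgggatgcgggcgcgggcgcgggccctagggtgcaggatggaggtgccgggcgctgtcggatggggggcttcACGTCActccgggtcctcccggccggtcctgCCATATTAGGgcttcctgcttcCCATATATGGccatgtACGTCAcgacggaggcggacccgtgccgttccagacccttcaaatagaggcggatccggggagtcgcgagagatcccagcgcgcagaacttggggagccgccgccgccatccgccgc

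Motifs were searched on both strands with overlaps allowed. Promoter windows were matched for 9 of the 10 genes, all but FOSL1, with 2 windows for ATF3. The CArG box was found in EGR1 alone, in 2 copies whose first bases lay at -105 and -83 from the start, and 1.29% of all 35116 promoter windows held one. TGACGT was found in 5 of the 9 genes, namely FOS, FOSB, FOSL2, JUND and EGR1, and in 7.98% of all windows. Its first base lay at -64 in FOS, -60 in FOSB and -66 in FOSL2, and at -136 and -67 in EGR1. The motif TGACGTCA, which contains TGACGT, was found in JUND alone (1.85% of all windows). The AP-1 motif TGANTCA was found in FOSL2 alone (7.71%), while GGAATG, a TEAD motif (14% of all windows), and GCGTGGGCG, an EGR motif (0.795%), were found in 0 of the 9 genes. A match is a description of letters in this window and not a site or a cause, and no match says only that these letters are not in it.

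All 10 genes had a probe above background on at least 3 of the 9 arrays, and 8 of them on every array. FOSL1 lay below background on control vector replicate 3 and YAP mutant vector replicate 1, and FOSL2 on control vector replicate 3. These were the arrays of lowest brightness, with median raw signals of 104.2 and 104.6 against 119.7 to 128.8 on the others. Of the 3 ATF3 probes, 2 lay above background on 0 arrays, and ATF3 is described by the remaining probe. All 12 enteroendocrine and epithelial markers of the cell line were measured above background on at least 3 arrays. Of the 12, the granin gene SCG2 fell with the control vector (log2 -0.43, limma adjusted p = 0.0249) and with the YAP mutant vector (-0.87, adjusted p = 5.95e-06), both against untreated cells. In the latter comparison the prohormone convertase gene PCSK1 also fell (-0.57, adjusted p = 0.00249), and SCG5 (0.34, adjusted p = 0.0352) and the keratin gene KRT8 (0.50, adjusted p = 0.046) rose. Over all genes, 2.18% passed in the first comparison and 5.17% in the second. With the control vector, 7 of the 12 had a higher mean and 5 a lower one. CHGA, CHGB and GCG differed by 0.21, 0.23 and 0.13 with the control vector and by 0.14, 0.08 and 0.13 with the YAP mutant vector, without a call. YAP1 was measured by 1 probe and differed by 0.07 ± 0.11 on the log2 scale between the vectors (SE, n = 3 per group; limma, adjusted p = 0.964). The part of the transcript that this probe reads is not given in the sources used here, so it checks nothing about the labels. No label states that the replicates were separate cultures, and the p-values therefore reflect array-to-array spread that could be technical.

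FOS was the member that differed most between the groups. Its log2 normalised signals were 7.08, 6.92 and 6.77 in untreated cells, 7.94, 8.34 and 7.82 with the control vector, and 7.15, 7.39 and 7.18 with the YAP mutant vector. Every control vector array lay above every other array, and every YAP mutant vector array lay above every untreated one. The control vector difference from untreated cells was 1.11 ± 0.13 on the log2 scale (SE, n = 3 per group), or 2.15-fold higher. The YAP mutant vector difference from the control vector was -0.79 ± 0.13, or 1.73-fold lower. By the group means, 28.5% of the difference between control vector and untreated cells was left in the YAP mutant vector arrays. The raw signals behind these values ran from 155.3 to 180.8, from 205.7 to 391.9 and from 150.3 to 216.2 in the 3 groups, close to a background floor of 110.8 to 138.0. The difference between control vector and untreated cells was 0.91 on the authors' deposited log2 values, which carry no background correction, and 1.38 with a normexp offset of 16 in place of 50.

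FOSB, the FOS paralogue induced by the same signals, followed the same order with smaller steps. Its log2 signals were 7.02, 7.18 and 7.26 in untreated cells, 7.64, 7.58 and 7.53 with the control vector, and 7.33, 7.50 and 7.42 with the YAP mutant vector. The 3 groups did not overlap, but the lowest control vector array (7.53) and the highest YAP mutant vector array (7.50) lay next to each other. The raw signals ran from 175.7 to 202.5, from 177.4 to 266.9 and from 164.1 to 230.7 in the 3 groups, close to the floor of 110.8 to 138.0. Before normalisation the groups therefore overlapped, with the dim control vector replicate 3 at 177.4. The differences were 0.43 ± 0.10 for the control vector against untreated cells and -0.17 ± 0.10 for the YAP mutant vector against the control vector, with 60.7% of the first left in the YAP mutant vector arrays. With arrays scaled to a common median, FOSB no longer had every control vector array above every other array. The FOSB call between control vector and untreated cells ended without untreated replicate 1 or 2 and without any 1 control vector replicate. That comparison was used to choose the members, so the call is no test of FOSB.

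FOSL1 and FOSL2, the FOS subunits without a transactivation domain like that of FOS, showed no such order. The log2 signals of FOSL1 ran from 6.51 to 6.70 in untreated, 6.42 to 6.57 in control vector and 6.32 to 6.78 in YAP mutant vector arrays. Those of FOSL2 ran from 6.58 to 6.92, from 6.40 to 6.93 and from 6.68 to 6.88. All 3 groups overlapped for both genes, and each of their differences was at most 0.11 in size on the log2 scale.

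Among the JUN subunits, the partners that FOS proteins need to bind DNA, no group stood clear of the others. The log2 signals of JUN were 9.36, 9.42 and 9.51 in untreated arrays, 9.54, 9.27 and 8.95 in control vector arrays, and 9.55, 9.49 and 9.08 in YAP mutant vector arrays. JUN varied more between replicates than 96.7% of all genes tested (within-group SD 0.23), and its control vector difference from untreated cells was -0.17 ± 0.14. JUNB, which can restrain JUN, ran from 7.26 to 7.53 in untreated, 7.26 to 7.60 in control vector and 7.11 to 7.45 in YAP mutant vector arrays. JUND, the JUN subunit that is present without stimulation, ran from 12.24 to 12.45, from 12.37 to 12.42 and from 12.29 to 12.38. JUND had a within-group SD of 0.07, lower than most genes, and its differences were 0.04 ± 0.10 and -0.05 ± 0.10.

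EGR1, a zinc finger factor induced through SRF, was high in the control vector arrays as well. Its log2 signals were 9.01, 8.66 and 8.56 in untreated arrays, 8.98, 9.38 and 9.24 in control vector arrays, and 8.93, 8.74 and 8.66 in YAP mutant vector arrays. Every YAP mutant vector array lay below every control vector array, whereas untreated replicate 1 (9.01) lay just above control vector replicate 1 (8.98). The differences were 0.45 ± 0.13 for the control vector against untreated cells and -0.42 ± 0.13 for the YAP mutant vector against the control vector. The untreated and YAP mutant vector means were 8.74 ± 0.24 and 8.78 ± 0.14 (SD, n = 3 each).

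IER2, an immediate early nuclear protein, was lowest with the YAP mutant vector. Its log2 signals were 7.42, 7.45 and 7.01 in untreated arrays, 7.36, 7.30 and 7.66 in control vector arrays, and 7.27, 7.04 and 6.94 in YAP mutant vector arrays. The control vector and untreated arrays overlapped (difference 0.15 ± 0.13), and all YAP mutant vector arrays lay below all control vector arrays (difference -0.36 ± 0.13). ATF3, a basic leucine zipper factor induced by stress that dimerises with JUN proteins, had another order. Its log2 signals were 6.77, 6.95 and 7.07 in untreated arrays, 7.27, 6.97 and 7.01 in control vector arrays, and 7.24, 7.18 and 7.18 in YAP mutant vector arrays. The ATF3 difference between the vectors was 0.12 ± 0.11, and all YAP mutant vector arrays lay above all untreated ones.

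**Figure D1:**
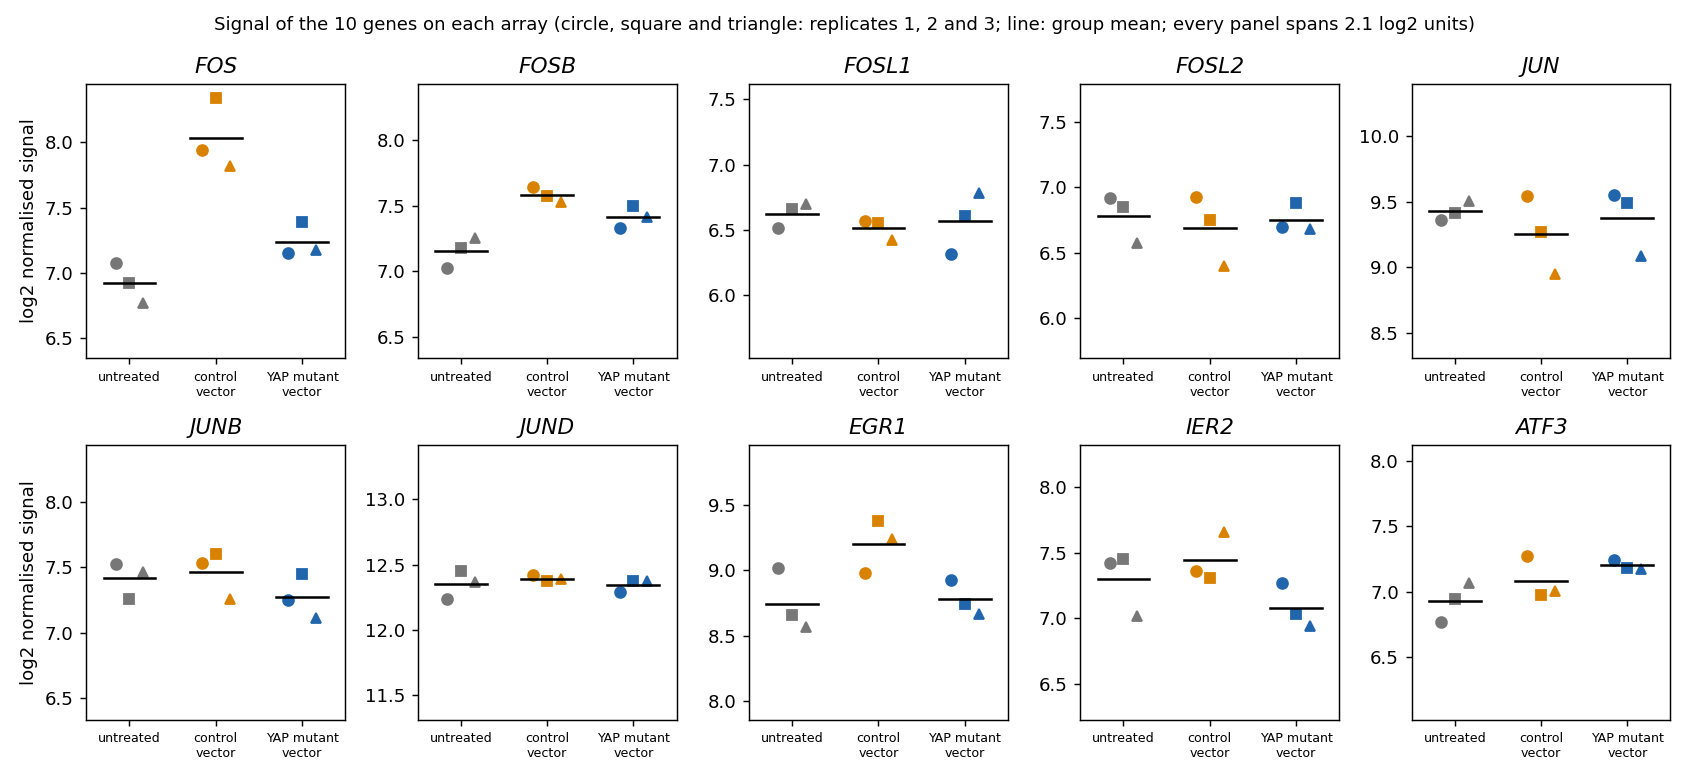
Log2 normalised signal (y axis) of the 10 genes on each array, by group (x axis), with replicates 1, 2 and 3 as circle, square and triangle and the group mean as a line. Control vector arrays stand above all others for FOS and FOSB, YAP mutant vector arrays lie below all control vector arrays for EGR1 and IER2 too, and FOSL1, FOSL2, JUN, JUNB and JUND overlap.

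Counted over the members, the control vector mean was above both other means for 6 of 10 genes (FOS, FOSB, JUNB, JUND, EGR1 and IER2), as it was for 28.2% of all 15591 genes tested. Control vector arrays lay above all untreated arrays for 2 of 10 genes (9.79% of all genes), and YAP mutant vector arrays lay below all control vector arrays for 4 of 10 (5.63% of all genes). Both held for 2 of 10 genes, FOS and FOSB, and for 154 genes or 0.988% of all genes. Ranked by the smaller of the 2 steps, FOS had rank 1 among those 154 genes. At the threshold of the fit across all genes, 2 of 10 members were called between control vector and untreated cells (FOS and FOSB, both higher; 2.18% of all genes, 1.52% higher) and 1 of 10 between the vectors (FOS, lower; 0.34% of all genes, 0.0192% lower). These comparisons were used to choose the members, so the counts describe the choice and are no test of it. The 2 comparisons share the control vector arrays, so an unusually high control vector mean raises the first difference and lowers the second.

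**Figure D2:**
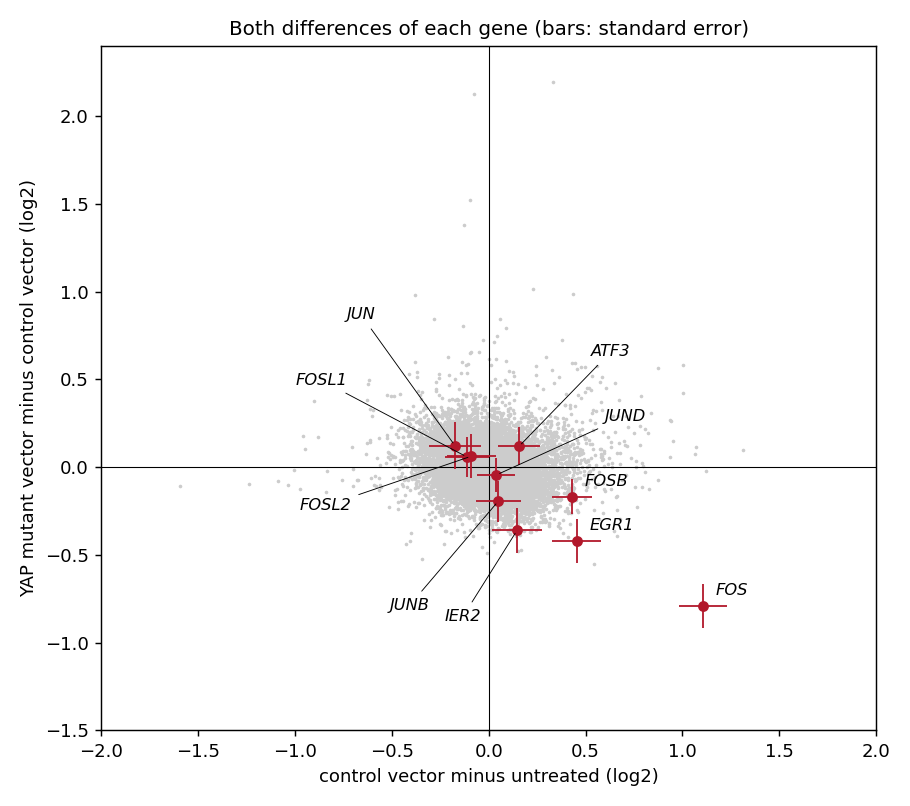
Log2 difference of the control vector from untreated cells (x axis) against that of the YAP mutant vector from the control vector (y axis), with all 15591 genes in grey and the 10 genes in red with standard errors. FOS stands alone at 1.11 and -0.79, EGR1 and FOSB lie on its side of the cloud, and the other genes lie within it or at its edge; both axes contain the control vector mean.

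Without control vector replicate 3, which was one of the dim arrays, JUNB joined FOS and FOSB in having every control vector array above all others. Without untreated replicate 1 or control vector replicate 1, EGR1 joined them. Without both dim arrays, the FOS differences were 1.25 and -0.88 on the log2 scale. With the median raw signal of each array as a covariate they were 1.18 and -0.78. Across 23 alternative settings, the FOS difference between control vector and untreated cells ran from 0.91 to 1.38 and that between the vectors from -0.96 to -0.64. FOSB, EGR1 and IER2 kept their signs in both comparisons in all 23 settings, although IER2 came down to 0.005 against untreated cells without untreated replicate 3. FOS, FOSB, EGR1 and IER2 have 1 probe each. Their differences therefore cannot move with the filter, the probe rule, the variance prior, the replicate block or a fit of only the 2 groups compared. Both comparisons were used to choose the members, so the kept signs are no test.

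**Figure D3:**
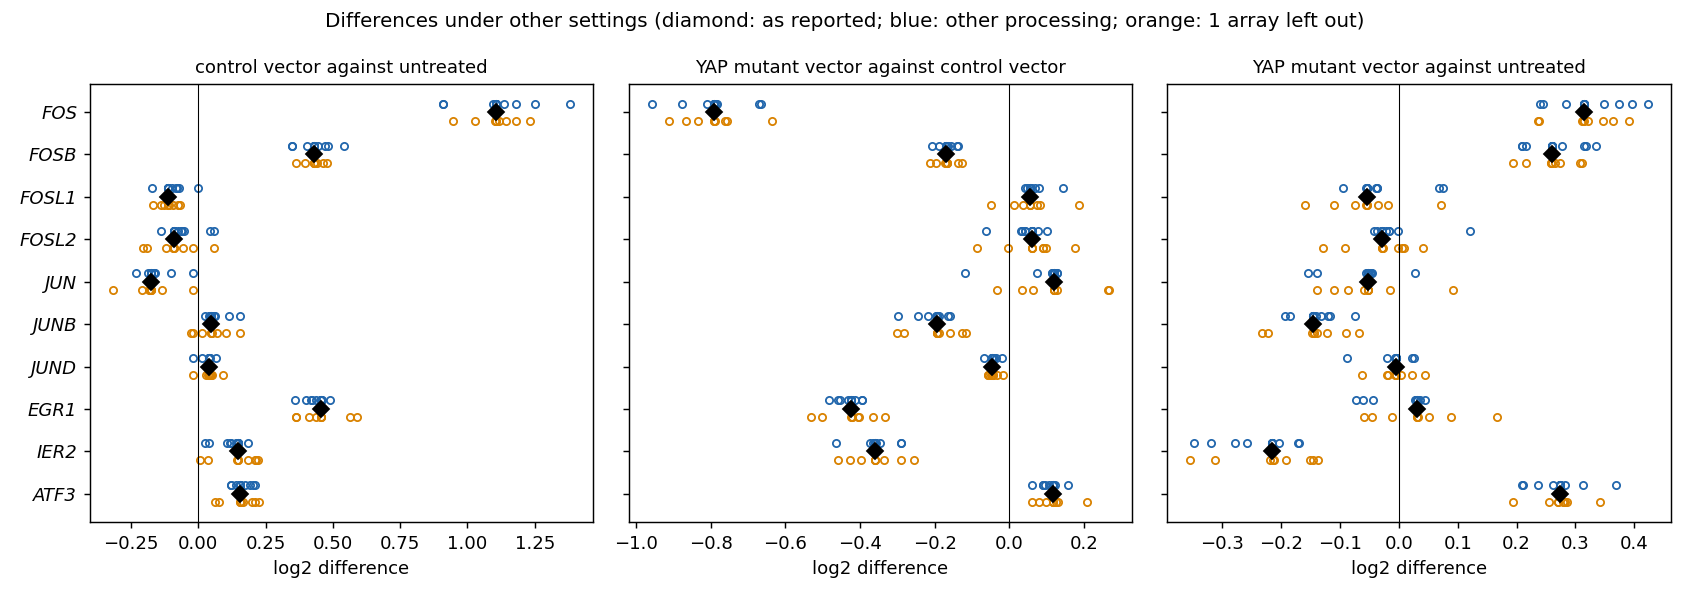
Log2 difference (x axis) of each of the 10 genes (y axis) in the 3 comparisons, as reported (diamond), under other processing (blue) and with 1 array left out (orange). FOS stays between 0.91 and 1.38 in the first panel and between -0.96 and -0.64 in the second, while JUN runs from -0.32 to -0.02 in the first panel and from -0.12 to 0.27 in the second.

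YAP mutant vector cells were also set against untreated cells, a comparison of vector and mutant YAP together. It was not itself named in the choice of members. As the sum of the other 2 differences, on the same arrays, it is not independent of that choice. This gave 0 of 10 members past the test (limma, Benjamini-Hochberg adjusted over 15591 genes, of which 5.17% passed), and 3 at an unadjusted p under 0.05, as for 18.4% of all genes. The 3 were FOS, FOSB and ATF3, which also were the 3 genes of 10 whose YAP mutant vector arrays all lay above all untreated arrays (11.9% of all genes), while 0 of 10 had them all below (11.3%). FOS differed by 0.32 ± 0.13 on the log2 scale (SE, n = 3 per group; 95% interval 0.06 to 0.57; limma, adjusted p = 0.161). FOSB differed by 0.26 ± 0.10 (95% interval 0.05 to 0.47; limma, adjusted p = 0.15). ATF3 differed by 0.27 ± 0.11 (95% interval 0.05 to 0.50; limma, adjusted p = 0.161). Over the 23 alternatives the adjusted p of FOS ran from 0.106 to 0.472, that of FOSB from 0.112 to 0.549 and that of ATF3 from 0.125 to 0.495. EGR1 differed by 0.03 (95% interval -0.23 to 0.29) and IER2 by -0.22 (95% interval -0.48 to 0.05). The intervals of FOSL1, FOSL2, JUN, JUNB and JUND all included 0 and lay between -0.39 and 0.23. These intervals do not show that untreated and YAP mutant vector cells express these genes alike.

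Other immediate early genes, which respond to the same signals, were read as a list. Of 36 listed genes, 26 could be tested, and EGR3, EGR4, NR4A1 and NR4A3 were among those too dim. Between control vector and untreated cells, 0 of 26 passed the test in limma (5 at an unadjusted p under 0.05, as for 13.9% of all genes), 13 were above 0 and the median log2 difference was -0.01, against 0.00 for all genes. IER5, an immediate early regulator of heat shock factor, differed by 0.40 ± 0.11 (limma, adjusted p = 0.0515), the negative feedback gene IER3 by -0.36 ± 0.11 (adjusted p = 0.083) and the mRNA decay factor ZFP36 by -0.35 ± 0.11 (adjusted p = 0.113). Between the vectors, 0 of 26 passed (7 at an unadjusted p under 0.05, as for 6.49% of all genes), with a median of -0.06. CCN1, a matricellular gene that YAP and SRF both target, differed by 0.38 ± 0.11 (adjusted p = 0.274), the small GTPase gene RHOB by -0.30 ± 0.10 (adjusted p = 0.424) and MAFF, a small MAF protein, by -0.36 ± 0.12 (adjusted p = 0.455).

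Against untreated cells, the YAP mutant vector gave 2 of these 26 genes past the test (5.17% of all genes), IER5 higher and MAFF lower. An unadjusted p under 0.05 was reached by 7 of the 26, against 18.4% of all genes. The log2 signals of IER5 were 8.46, 8.53 and 8.32 in untreated arrays and 8.86, 8.79 and 8.96 in YAP mutant vector arrays, and it rose by 0.43 ± 0.11 (limma, adjusted p = 0.0183). IER5 lost its call without untreated replicate 3 (adjusted p = 0.0987) or YAP mutant vector replicate 3 (0.0874), in a range of 0.00973 to 0.227 across the alternatives. Its call also ended with an offset of 16 (adjusted p = 0.0554), common-median scaling (0.227) and the median raw signal as a covariate (0.0989). MAFF was at 8.54, 8.58 and 8.07 in untreated arrays and at 7.83, 7.88 and 7.71 in YAP mutant vector arrays, and fell by 0.59 ± 0.12 (limma, adjusted p = 0.00539). A second, dimmer MAFF probe differed by 0.09, so the 2 probes disagreed in sign, and the mean over probes ended the call (adjusted p = 0.142; 4.47e-04 at the lowest).

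Genes that report ERK activity included 1 call with the control vector and 0 between the vectors. Of 16 tested ERK output and feedback genes, 5 had an unadjusted p under 0.05 between control vector and untreated cells (13.9% of all genes). Among them SPRY4, a Sprouty inhibitor of the receptor-to-RAS step, passed the test in that comparison (2.18% of all genes passed). Its log2 signals were 10.15, 9.84 and 9.98 in untreated arrays, 9.48, 9.47 and 9.47 in control vector arrays and 9.51, 9.64 and 9.42 in YAP mutant vector arrays. SPRY4 fell by 0.51 ± 0.10 with the control vector (limma, adjusted p = 0.0084) and by 0.47 ± 0.10 with the YAP mutant vector (adjusted p = 0.00836), both against untreated cells. Both calls ended without untreated replicate 1 (adjusted p = 0.0613 and 0.0521), and the second also without YAP mutant vector replicate 3 (0.0525). Both ended with the mean over the kept SPRY4 probes (adjusted p = 0.0718 and 0.0643), and the first also with a normexp offset of 16 (0.0509) and with common-median scaling (0.0562), against 0.00317 and 0.00327 at the lowest. The other 2 SPRY4 probes differed by -0.32 and -0.19 with the control vector and by -0.33 and -0.14 with the YAP mutant vector. Between the vectors, 0 of 16 passed (1 at an unadjusted p under 0.05), with a median of 0.04. DUSP6, the phosphatase that ERK induces against itself, differed by 0.16 (adjusted p = 0.501) and -0.02 (adjusted p = 0.991) in the 2 comparisons. The ephrin receptor gene EPHA2, also an ERK target, rose by 0.50 ± 0.13 with the YAP mutant vector against untreated cells (limma, adjusted p = 0.0232). In that comparison 1 of the 16 genes passed as higher (EPHA2) and 1 as lower (SPRY4), where 5.17% of all genes passed. EPHA2 lost its call without untreated replicate 1 (adjusted p = 0.0507) or 2 (0.152) and on omission of YAP mutant vector replicate 1 (0.0587) or 2 (0.14), with 0.00606 to 0.152 across the alternatives. Its call also ended with an offset of 16 (adjusted p = 0.065), common-median scaling (0.104) and the median raw signal as a covariate (0.0527).

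The kinases and factors upstream of FOS and EGR1 gave 0 of 20 past the test in limma between control vector and untreated cells. An unadjusted p under 0.05 was reached by 3 of the 20 (13.9% of all genes), and the median was -0.04. Between the vectors 0 of 20 passed and 2 had an unadjusted p under 0.05 (6.49% of all genes), with a median of -0.07. SRF differed by -0.01 and -0.11 and the ternary complex factor gene ELK1 by 0.16 and -0.10 in these comparisons. Of this list, only the RAS gene HRAS passed against untreated cells with the YAP mutant vector (log2 -0.37 ± 0.11, limma adjusted p = 0.0457). This was 1 of 20 genes, where 5.17% of all genes passed. In that comparison 5 of the 20 had an unadjusted p under 0.05, against 18.4% of all genes. HRAS lost its call under 13 of 23 alternatives, among them cyclic loess (adjusted p = 0.0579), no filter on dim probes (0.0715), common-median scaling (0.138) and an offset of 16 (0.0989). It also lost the call without untreated replicate 2 (adjusted p = 0.175) or 3 (0.124) and on omission of YAP mutant vector replicate 1 (0.133), 2 (0.114) or 3 (0.0639), with 0.0291 to 0.214 across the alternatives. Other basic leucine zipper factors gave 0 of 27 in limma in each of the first 2 comparisons, with medians of 0.01 and -0.02. An unadjusted p under 0.05 was reached by 0 and 3 of them (13.9% and 6.49% of all genes). With the YAP mutant vector against untreated cells, 1 of 27 passed, MAFF as lower (5.17% of all genes passed). There 9 of 27 had an unadjusted p under 0.05, against 18.4% of all genes. The EGR family and its NAB corepressors had 3 tested genes and 0 calls in any comparison, with EGR2 at 0.14 and then -0.24 (0, 1 and 0 at an unadjusted p under 0.05).

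AP-1 target genes, of which 9 of 18 could be tested, had 1 call between control vector and untreated cells (2.18% of all genes passed). In that comparison 4 of the 9 had an unadjusted p under 0.05, as for 13.9% of all genes. CD44, a hyaluronan receptor, was at 9.66, 9.85 and 9.90 in untreated, 10.23, 10.78 and 10.38 in control vector and 10.12, 10.15 and 10.38 in YAP mutant vector arrays. CD44 rose by 0.66 ± 0.13 with the control vector (limma, adjusted p = 0.00488), and a second probe differed by 0.43. Common-median scaling of the arrays ended its call (adjusted p = 0.0899), as did a smaller offset (0.0529; 0.00153 at the lowest). The YAP mutant vector arrays differed from the control vector arrays by -0.25 ± 0.13 (adjusted p = 0.797), and by -0.02 on the second CD44 probe. Between the vectors, 0 of 9 AP-1 targets passed in limma (0 at an unadjusted p under 0.05), with a median of 0.01. The list's median was 0.15 for control vector against untreated cells, where that of all genes was 0.00.

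Stress genes that share the regulation of ATF3 were measured in 9 of 11 cases. An unadjusted p under 0.05 was reached by 4 of the 9 between control vector and untreated cells (13.9% of all genes). Between the vectors it was reached by 2 (6.49%), and between YAP mutant vector and untreated cells by 6 (18.4%). The mTORC1 inhibitor gene DDIT4 was at 9.56, 9.60 and 9.47 in untreated, 10.14, 10.02 and 10.30 in control vector and 10.11, 10.06 and 10.35 in YAP mutant vector arrays. It rose by 0.61 ± 0.11 with the control vector (limma, adjusted p = 0.00245) and by 0.63 ± 0.11 with the YAP mutant vector (adjusted p = 7.04e-04), both against untreated cells. Scaling arrays to a common median ended the first call (adjusted p = 0.0557; 7.74e-04 at the lowest). PPP1R15A, which restores translation after stress and is also known as GADD34, was the 1 gene of the lists that passed between the vectors. It was at 9.27, 9.53 and 9.44 in untreated, 9.58, 9.21 and 9.16 in control vector and 9.95, 10.21 and 9.75 in YAP mutant vector arrays. PPP1R15A rose by 0.65 ± 0.13 (limma, adjusted p = 0.0178), the opposite direction to FOS in the same arrays. Leaving out control vector replicate 2 (adjusted p = 0.121) or 3 (0.114) ended this call, as did leaving out YAP mutant vector replicate 1 (0.07) or 2 (0.203), in a range of 0.00555 to 0.401 across the alternatives. An offset of 16 (adjusted p = 0.182), common-median scaling (0.401) and omission of both dim arrays (0.2115) also ended the call.

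Against untreated cells, the YAP mutant vector gave 3 of the 9 stress genes past the test, all higher (3.36% of all genes passed as higher), with a median of 0.33 over the list and -0.01 over all genes. PPP1R15A rose by 0.55 ± 0.13 (limma, adjusted p = 0.0103) and ASNS, the asparagine synthetase gene that ATF4 induces, by 0.47 ± 0.13 (adjusted p = 0.0358). PPP1R15A lost this call without untreated replicate 1 (adjusted p = 0.0636) or YAP mutant vector replicate 2 (0.0673), in a range of 0.00512 to 0.198 across the alternatives. An offset of 16 (adjusted p = 0.0616) and common-median scaling (0.198) also ended the call. ASNS lost its call without untreated replicate 1 (adjusted p = 0.116), 2 (0.111) or 3 (0.0532) and on leaving out YAP mutant vector replicate 1 (0.0692) or 3 (0.203), with 0.00842 to 0.246 across the alternatives. Its call also ended with an offset of 16 (adjusted p = 0.123), common-median scaling (0.246) and the median raw signal as a covariate (0.157). Heat shock genes gave 0 of 11 past the test in limma in each comparison (0, 0 and 1 at an unadjusted p under 0.05), with medians of -0.04, -0.07 and -0.09.

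**Figure D4:**
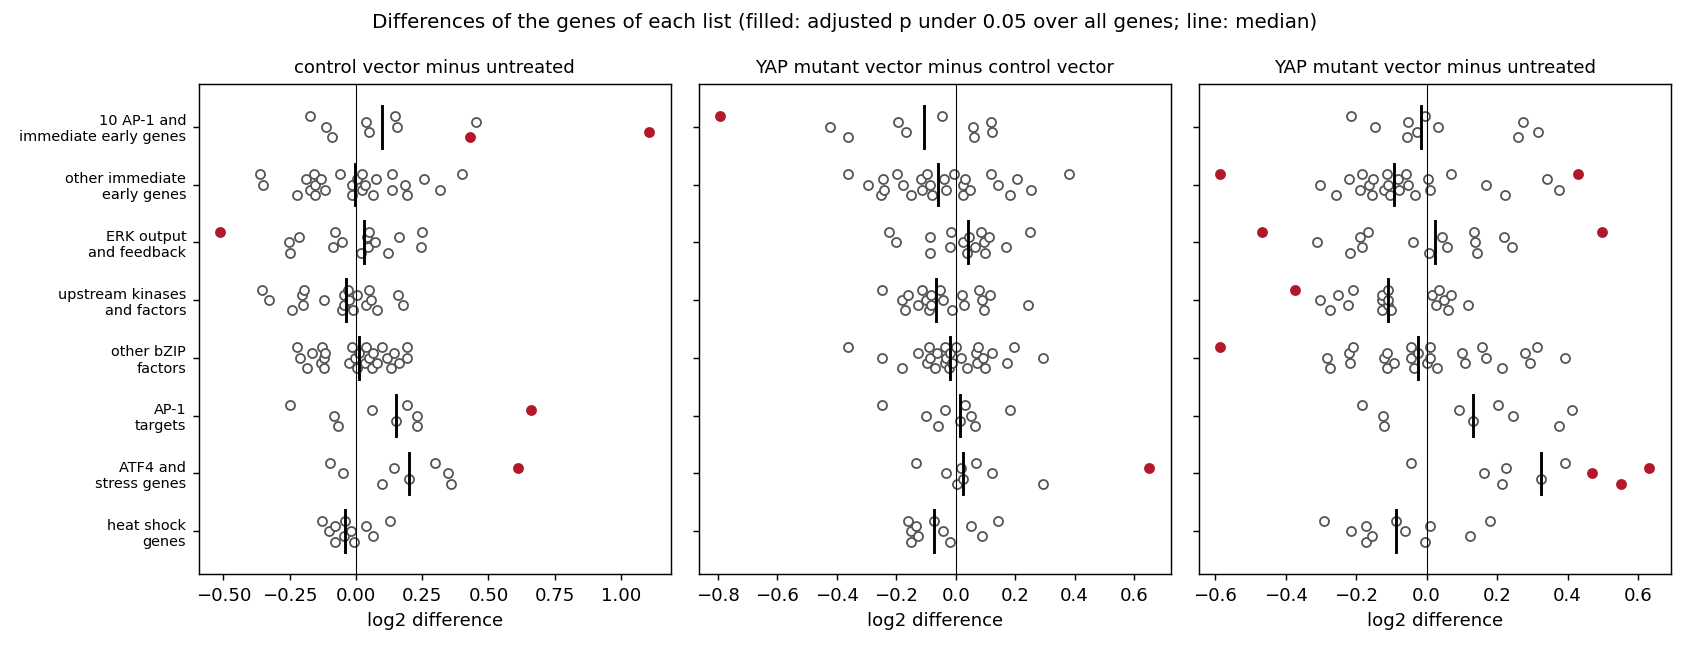
Log2 differences (x axis) of the tested genes of each list (y axis) in the 3 comparisons, with genes past an adjusted p of 0.05 filled and the list median as a line. In the first 2 panels FOS lies at 1.11 and -0.79, outside the range of every other list, and the other immediate early genes lie between -0.36 and 0.40.

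Markers of other cell types were read beside these differences. Of 8 blood cell markers, 5 were tested, and 2 of them, CD14 (log2 0.43, limma adjusted p = 0.0381) and HBB (0.45, adjusted p = 0.0444), rose in control vector against untreated arrays. Over all genes, 2.18% passed there, 1.52% as higher. Of the other blood cell markers, LYZ differed by 0.32 (limma, adjusted p = 0.149), CD68 by 0.04 and the haemoglobin gene HBA1 by -0.13 in that comparison. With the YAP mutant vector against untreated cells, HBA1 fell by 0.50 (adjusted p = 0.00383), the 1 call among the 5 (5.17% of all genes passed). The summed linear signal of the 5 blood cell markers was 6684 to 7706 in untreated, 7342 to 8404 in control vector and 6631 to 7516 in YAP mutant vector arrays. The leukocyte markers PTPRC and CD3E lay above background on 0 arrays. Of 8 fibroblast markers, 5 were tested, and LUM alone passed, with the YAP mutant vector against untreated cells (5.17% of all genes passed). LUM differed by 0.41 with the control vector (limma, adjusted p = 0.0925) and rose by 0.51 with the YAP mutant vector (adjusted p = 0.0159), both against untreated cells. In the same 2 comparisons FAP differed by 0.36 and 0.27, COL3A1 by 0.045 and 0.15, COL1A1 by 0.07 and -0.09, and COL1A2 by -0.11 and 0.12. Summed signals of the 5 were 4981 to 5802 in untreated, 5764 to 7203 in control vector and 5650 to 7601 in YAP mutant vector arrays. DCN, PDGFRB and THY1 lay above background on 0 arrays. Of 7 endothelial markers, 1 was tested, with a signal of 92.2 to 109.3, 79.5 to 103.6 and 103 to 108.5, and CDH5, VWF, KDR and CLDN5 lay above background on 0 arrays. The part of these markers in the FOS difference was not tested.

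Ranked by Pearson correlation of log2 signals over the 9 arrays, the genes most like FOS were MARVELD2, which encodes the tight junction protein tricellulin (Pearson r = 0.96, Spearman rho = 0.93), ZNF322 (0.94 and 0.92), MTPAP (0.94 and 0.77) and the oxytocin receptor gene OXTR (0.93 and 0.92). GFUS (0.93 and 0.88), UTP3 (0.93 and 0.80), ZMYND8 (0.92 and 0.93) and ARRDC4 (0.92 and 0.92) followed. By Spearman correlation, MTPAP ranked 182 and UTP3 118 among the named genes. The differences of these 8 genes between control vector and untreated cells were 0.19 to 0.33 on the log2 scale, against 1.11 for FOS, and none of the 8 passed the test in any comparison. By the same Pearson ranking, the genes most like EGR1 were TADA2A (r = 0.93, rho = 0.93), CEP250 (0.92 and 0.95), THOC1 (0.92 and 0.92), TAF7 (0.91 and 0.97), LSM12 (0.90 and 0.93), BBS10 (0.89 and 0.78), FAM153A (0.89 and 0.77) and FAM10A4 (0.88 and 0.78). By Spearman correlation, BBS10 and FAM10A4 ranked 79 and FAM153A 98. Among the members themselves, EGR1 (r = 0.84, rho = 0.75) and FOSB (r = 0.80, rho = 0.92) were most like FOS, and JUN (r = -0.30, rho = -0.27) and FOSL1 (r = -0.29, rho = -0.32) had the lowest values. The 9 arrays form 3 groups and share their normalisation, so a difference between groups alone gives a high value, and these correlations are descriptions without a test.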

How the data were processed

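Expression was measured in 9 samples with an Illumina bead array, 3 per labelled group. The deposited table of probe intensity, exported with BeadStudio per the submitters' processing notes, is neither background-subtracted nor normalized and was used without detection p-values. A further deposited table gives values in log2 units, which differed by at most 0.005 from the log2 quantile-normalized intensities computed here. Intensities were corrected with normexp (offset 50), put on the log2 scale and quantile normalized with limma 3.58.1 in R 4.3.3. A probe was kept when at least 3 arrays exceeded a floor set at the upper 5% point of a normal background, from the array's mode and the spread below it. That left 20220 probes. Gene names were brought up to date through RefSeq (GRCh38.p14), and the brightest kept probe stood for each of 15591 genes.

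The 9 arrays entered a single limma fit with group means as terms (6 residual and 16.2 prior degrees of freedom), and p-values were adjusted by Benjamini-Hochberg over all genes, with calls under 0.05, 2-sided. Errors of differences are the model's standard errors. The 10 members and 8 lists were chosen with earlier results of these data known. The naming rule took the members, up to 3 genes per list and comparison with the smallest p, and the 8 genes most like FOS and EGR1. Genes outside this rule, named after their values were seen, were EGR3, EGR4, NR4A1, NR4A3, DUSP6, SRF, ELK1, YAP1 and all markers of cell types. Alternatives changed the background correction, scaling, filter, probe rule, variance prior, block and arrays. Steps were tested on simulated data. The number of arrays limits the precision.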

Additional observations from a re-analysis of the deposited data

How the results depend on the processing

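With each array left out in turn, the genes called numbered 157 to 371 between control vector and untreated cells (340 as reported), 23 to 54 between the vectors (53) and 475 to 874 between YAP mutant vector and untreated cells (806), and 2 to 3 members had every control vector array above all others (2). The 3 counts of genes were 135, 22 and 512 with a normexp offset of 16, and 82, 12 and 290 with arrays scaled to a common median, which left 1 such member. The counts fell by over 1.5 times without any 1 untreated replicate (182, 184 and 198) or control vector replicate 3 (157) in the first comparison, on omission of control vector replicate 2 (27), control vector replicate 3 (35), YAP mutant vector replicate 1 (31) or YAP mutant vector replicate 2 (23) in the second, and without untreated replicate 2 (499) or YAP mutant vector replicate 3 (475) in the third. The cause was not tested. After seeing the data, fits without both dim arrays (159 and 27 genes in the first 2 comparisons) and with brightness as a covariate (188 genes in the first and 516 in the third) were added. Same-numbered arrays did not deviate together (correlations from -0.20 to 0.16), so the numbers were not taken as pairs. The replicate block gave 383, 64 and 868 genes and changed no member's side of the threshold, although HRAS lost and DDIT3 and CD44 gained a call between YAP mutant vector and untreated cells (adjusted p = 0.0543, 0.025 and 0.0362). FOS kept its side of the threshold in each of the 23 alternatives of each comparison, while FOSB passed it between control vector and untreated cells in 16 of 23 and EGR1 in 5 of 23. The comparisons with the control vector were used to choose the members, so these passes describe the choice and are no test of it. FOSL1, FOSL2, JUN, JUNB, JUND and EGR1 (the last between YAP mutant vector and untreated cells) changed sign under some alternative in at least 1 comparison, without a call. FOSL1 and FOSL2 could not be tested where a probe had to exceed the floor on all 9 arrays.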
